A study of Mus musculus with 10 samples.

Results

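The 8 genes Pdha1, Dlat, Cs, Idh3a, Ogdh, Sucla2, Fh1 and Mdh2 encode enzymes that carry pyruvate carbon through pyruvate dehydrogenase and the citric acid cycle. They were taken by name from the deposited gene table, where all 8 were found among 78317 listed genes. Punches of the medial prefrontal cortex were profiled by sequencing of polyadenylated RNA; this is a frontal region of the mouse brain. Compared were 5 libraries from mice given an adeno-associated virus (AAV) for overexpression of the microRNA miR-130a-3p and 5 libraries from mice given a control AAV. All mice carried the wild-type genotype label; strain, age, vector promoter and the time after injection are not given in the sources used here. The sources also do not say how many mice each library holds, so the p-values refer only to spread among libraries, which may be technical. Values are in TPM, a relative transcript abundance that divides reads by transcript length and by the library total, and the depth behind them is unknown.

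Pyruvate enters the mitochondrial matrix through a carrier and is turned into acetyl coenzyme A by the pyruvate dehydrogenase complex. Citrate synthase joins that acetyl group to oxaloacetate, and the cycle then oxidises it through isocitrate, alpha-ketoglutarate, succinyl coenzyme A, succinate, fumarate and malate. The electrons feed the respiratory chain, and several intermediates are drawn off in neurons and astrocytes to make glutamate and gamma-aminobutyric acid. A microRNA lowers transcripts mostly by pairing of its seed, bases 2 to 8, with sites in their 3′ untranslated regions (UTRs).

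The overexpressed microRNA is shown first, with its seed in capitals, because the sites sought in the 8 genes are defined by it. The mature sequence is from RefSeq (GRCm38.p6, chr2:84741116-84741137, minus strand).
mmu-miR-130a-3p: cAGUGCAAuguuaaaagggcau
The seed matches TTGCACT (pairing with bases 2 to 8) and TGCACTA (bases 2 to 7 and an A) were searched on the transcript strand, in the longest annotated 3′ UTR of each gene (GENCODE M21, GRCm38); the motifs can overlap. None of the 8 genes held either motif, in UTRs of 697 (Sucla2) to 1795 bases (Dlat), and neither did any of the 22 core genes of the pathway, 0 of 22. Of the 13359 tested genes with a 3′ UTR, 2229 (16.7%) held at least 1, with a median UTR of 1387 bases. The median UTR was shorter in the pathway, at 1201.5 bases for the 8, 894 for the 22 core genes and 903 for the 53 of the wider list, and shorter UTRs offer fewer positions. Across the 53 genes of the wider pathway list, 2 held sites, both for kinases that switch pyruvate dehydrogenase off by phosphorylation. Those sites, with the match in capitals and the flanking UTR in lower case, are shown because they are the matches found among the 53 genes.
Pdk1 site at UTR base 1767: tattcagtgtaTTGCACTtactagctttca
Pdk1 site at UTR base 2870: agccaggtgtcTTGCACTctcaaccatctc
Pdk1 site at UTR base 2910: ttgaggcaggcTTGCACTgtagatagccta
Pdk4 site at UTR base 607: gctttttatgtTTGCACTcaaaaagccagt
A match is a description of these letters and not evidence of regulation. Pdk1 and Pdk4, named here because they hold the sites, were at 17.04 ± 2.67 and 4.08 ± 1.21 TPM in miR-130a libraries, against 19.3 ± 1.55 and 6.16 ± 1.62 TPM in controls (SD, n = 5 each). Neither passed the test (limma adjusted p = 0.35 and 0.11). Mir130a itself was listed at 0 in all 10 libraries, so the table does not measure the overexpression.

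The libraries differed between the groups in ways that touch every gene. In limma on log2(TPM + 1), 2110 of 15680 tested genes passed an adjusted p of 0.05, 343 higher and 1767 lower in the miR-130a group. Over all 15680 genes the log2 fold changes had a median of −0.09; median-ratio scaling set it at 0.01 and gave 866 higher and 1198 lower genes, and quantile normalization set it at 0.05 with 1071 higher and 1046 lower. Leaving out control library 7 gave 1228 calls, miR-130a library 14 gave 1278, miR-130a library 13 gave 1313 and control library 9 gave 3413. Mitochondrially encoded genes took 18.2% ± 1.96 of TPM in miR-130a libraries and 14.7% ± 1.48 in controls (SD, n = 5 each; exact permutation p = 0.0397, 2-sided). Every marker fixed for cortical excitatory neurons was detected, as was every striatal marker, so detection alone does not tell these regions apart. Of 10 microglial markers 9 were lower, as were 4 of 4 endothelial ones, and their summed TPM ran from 654 to 972 against 1774 to 3560 in controls (microglia) and from 83.8 to 114 against 127 to 148 (endothelium). Of 8 general neuronal markers 0 passed in limma, and their sums overlapped, at 4143 to 4948 TPM in miR-130a libraries and 3050 to 4967 TPM in controls. In such bulk samples, fewer cells of a type and less RNA per cell cannot be told apart.

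The 8 genes spanned a wide range of levels. Averaged over all 10 libraries, Mdh2 was at 405 ± 57.2 TPM, rank 320 of the 15680 tested genes, and Dlat, the lowest, was at 45.9 ± 7.59 TPM, rank 3128 (SD, n = 10). In between came Cs at 163, Idh3a at 155, Pdha1 at 142, Ogdh at 122, Sucla2 at 81.6 and Fh1 at 54.1 TPM. Mdh2 exceeded the next gene in 10 of 10 libraries, as did Sucla2 and Fh1, and Ogdh exceeded Sucla2 in 9. Cs exceeded Idh3a in only 5 of 10, Idh3a exceeded Pdha1 in 8 and Pdha1 exceeded Ogdh in 7, so these neighbours were not separated beyond their spread.

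None of the 8 genes passed the test between the groups. In limma 0 of 8 had an adjusted p under 0.05, where 13.5% of all tested genes did, and 1 of 8, Sucla2, had an unadjusted p under 0.05, where 28.4% of all genes did. Ranges of the groups overlapped for all 8, while they did not overlap for 11.3% of tested genes (1.85% higher and 9.46% lower). The fold changes were small: log2 values lay between −0.12 for Cs and 0.25 for Idh3a, with a median of 0.12 against −0.09 over all genes. The 95% intervals together ran from −0.44 to 0.50, that is, from 0.739-fold to 1.41-fold. Of the 8 values, 5 were above 0, where 36.4% of all genes were, and relative to the median of all genes the middle of the 8 lay at 0.21.

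**Figure D1:**
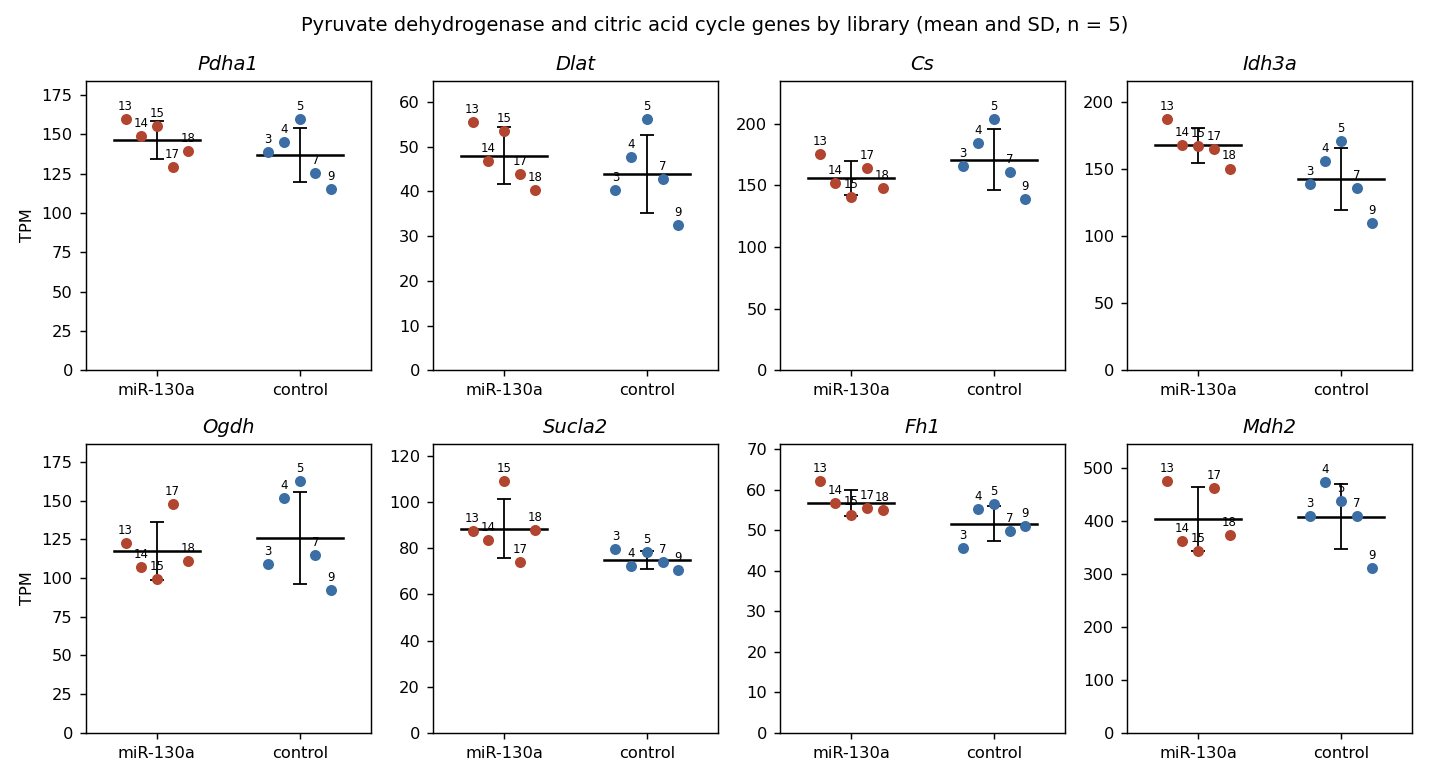
TPM (vertical axes, from 0) of the 8 genes in each library, miR-130a on the left and control on the right; small numbers name the library, lines are means and bars SD (n = 5). The groups overlap in every panel, and Sucla2 has 4 of 5 miR-130a libraries above the highest control.

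Pyruvate dehydrogenase is built of many copies of a few subunits, and 2 of them are among the 8. Pdha1 encodes the alpha subunit of the enzyme that decarboxylates pyruvate, and carries the serines that the Pdk kinases phosphorylate. Pdha1 measured 159.6, 149, 155, 129.6 and 139.6 TPM in miR-130a libraries 13, 14, 15, 17 and 18, against 139, 145, 159.9, 125 and 115 TPM in control libraries 3, 4, 5, 7 and 9. The groups ran over much the same values, with control library 5 highest and control library 9 lowest (log2 fold change 0.10, 95% interval −0.12 to 0.33, limma adjusted p = 0.557). Dlat encodes the acetyltransferase that forms the core of the complex and carries lipoyl groups. Dlat measured 55.5, 46.9, 53.5, 43.9 and 40.2 TPM in miR-130a libraries 13, 14, 15, 17 and 18, against 40.4, 47.6, 56.3, 42.7 and 32.5 TPM in control libraries 3, 4, 5, 7 and 9. It was again highest in control library 5 and lowest in control library 9, with the miR-130a libraries in between (log2 fold change 0.14, 95% interval −0.17 to 0.45, limma adjusted p = 0.577).

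The other subunits of the complex did not move alike. Pdhb, the beta partner of Pdha1, rose to 147 ± 13.4 TPM in miR-130a libraries, against 115 ± 9.71 TPM in controls (log2 fold change 0.36, 95% interval 0.15 to 0.56, limma adjusted p = 0.0269). Dld, the lipoamide dehydrogenase that the complex shares with alpha-ketoglutarate dehydrogenase, rose to 64.4 ± 9.72 TPM, against 47.9 ± 2.92 TPM (log2 fold change 0.41, 95% interval 0.17 to 0.64, limma adjusted p = 0.0286; SD, n = 5 each). Pdhx, which ties Dld to the Dlat core, was at 31.1 ± 4.38 TPM in miR-130a libraries and 34.2 ± 4.74 TPM in controls and did not pass (log2 fold change −0.13, 95% interval −0.40 to 0.14, limma adjusted p = 0.534). Both folds kept their size with single libraries left out, at 0.32 to 0.42 for Pdhb and 0.34 to 0.48 for Dld on the log2 scale, but the calls lay near the threshold. That of Pdhb was lost without any 1 of miR-130a libraries 13, 14, 15 and 17 or control libraries 3 and 7, with adjusted p up to 0.075 in limma. That of Dld was lost without any 1 of miR-130a libraries 13, 14 and 15 or control libraries 3, 4 and 7, with adjusted p up to 0.0775. Neither passed without the filter on low genes (limma adjusted p = 0.0505 and 0.0589). Both passed under median-ratio scaling (limma adjusted p = 0.00797 and 0.00846) and quantile normalization (limma adjusted p = 0.00538 and 0.0126). They also passed after rescaling without mitochondrially encoded genes (limma adjusted p = 0.0112 and 0.0237). Higher calls over all tested genes rose under these scalings too. Without control libraries 7 and 9 together, Pdhb was at a log2 fold change of 0.29 and Dld at 0.42 (limma adjusted p = 0.0676 and 0.0501).

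Since a ratio within a library is free of the scaling between libraries, 12 ratios between partner genes were also compared, by exact permutation of the libraries with adjustment over the 12. The Pdha1 to Pdhb ratio was 1.05, 0.992, 0.979, 0.854 and 1.13 in miR-130a libraries 13, 14, 15, 17 and 18, against 1.24, 1.19, 1.26, 1.14 and 1.12 in control libraries 3, 4, 5, 7 and 9. It was lower in the miR-130a group, with miR-130a library 18 level with control library 9 (log2 difference −0.25 ± 0.0743 SE, adjusted p = 0.0476, exact permutation). The Dlat to Pdhx ratio was 1.56, 1.57, 1.53, 1.45 and 1.62 in the miR-130a libraries, against 1.011, 1.42, 1.501, 1.32 and 1.17 in the controls, in the same library order. Here the miR-130a group was higher, and control libraries 3 and 9 lay farthest below it (log2 difference 0.28 ± 0.106 SE, adjusted p = 0.0476, exact permutation). The Dlat to Dld ratio averaged 0.747 in miR-130a libraries and 0.902 in controls and did not pass (log2 difference −0.27 ± 0.164 SE, adjusted p = 0.4, exact permutation).

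**Figure D2:**
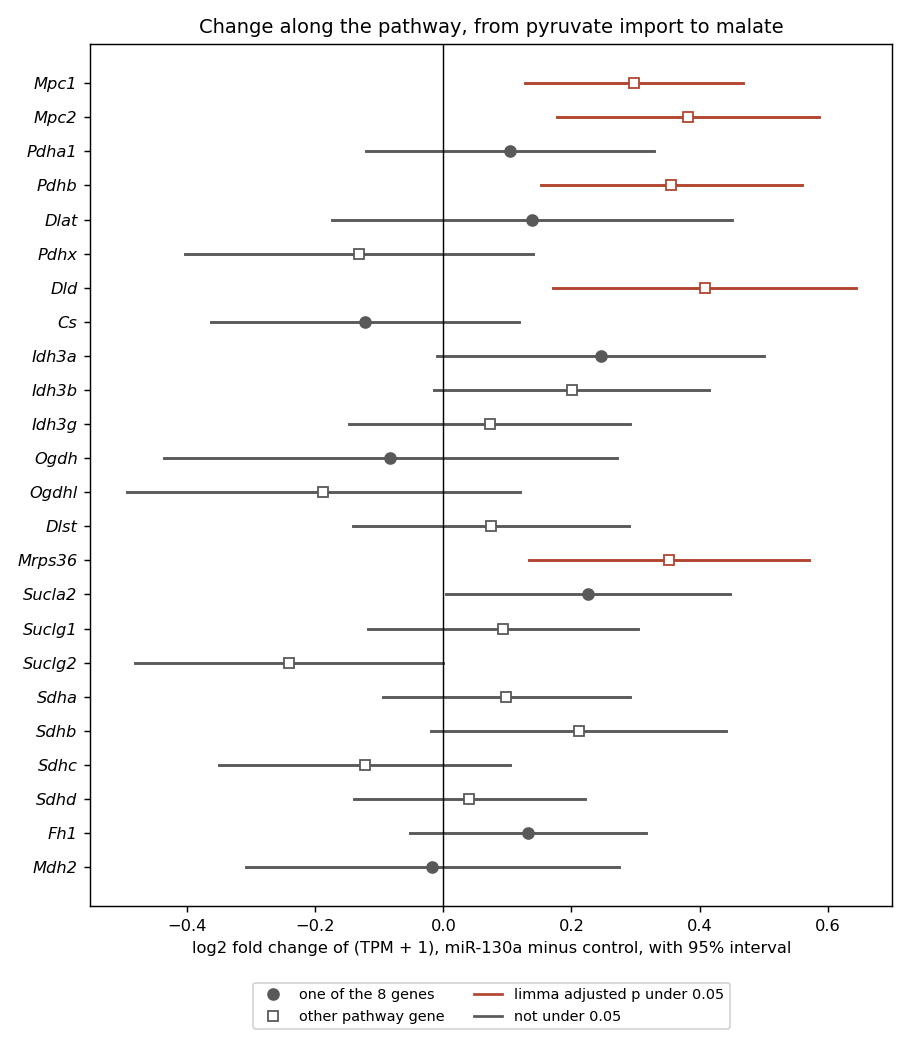
Log2 fold change of TPM + 1, miR-130a minus control, with its 95% interval (horizontal axis), for the pathway in order from pyruvate import down to malate. Filled circles are the 8 genes, open squares other pathway genes, and red marks a limma adjusted p under 0.05: Mpc1, Mpc2, Pdhb, Dld and Mrps36 are red, and none of the 8 is.

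Citrate synthase, the entry enzyme of the cycle, had the lowest fold change of the 8. Cs measured 175, 152, 140.2, 164 and 148 TPM in miR-130a libraries 13, 14, 15, 17 and 18, against 166, 184, 204, 161 and 139 TPM in control libraries 3, 4, 5, 7 and 9. Control libraries 4 and 5 lay above every miR-130a library, and control library 9 lay below them all (log2 fold change −0.12, 95% interval −0.36 to 0.12, limma adjusted p = 0.51).

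Idh3a encodes the catalytic subunit of the NAD-linked isocitrate dehydrogenase, a rate-setting step of the cycle, and had the largest fold change of the 8. Idh3a measured 187, 168, 167, 165 and 150.3 TPM in miR-130a libraries 13, 14, 15, 17 and 18, against 139, 156, 171, 136 and 109.9 TPM in control libraries 3, 4, 5, 7 and 9. Control libraries 3, 7 and 9 lay below every miR-130a library, while control libraries 4 and 5 lay within their range (log2 fold change 0.25, 95% interval −0.01 to 0.50, limma adjusted p = 0.194). Relative to the median of all genes its log2 fold change was 0.34. It passed in limma where the median of all genes was set near 0 by median-ratio scaling (log2 fold change 0.36, adjusted p = 0.0311). It also passed under quantile normalization (0.31, limma adjusted p = 0.0383). The same held after rescaling to protein-coding genes that are not mitochondrially encoded (0.32, limma adjusted p = 0.0473). Without control libraries 7 and 9, its 2 lowest values, it was at 0.11 (limma adjusted p = 0.475).

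Idh3b and Idh3g encode the regulatory partners of Idh3a. Idh3b was at 196 ± 12.8 TPM in miR-130a libraries and 172 ± 21.4 TPM in controls (SD, n = 5 each; limma adjusted p = 0.208). Idh3g was at 141 ± 15.4 and 134 ± 13.4 TPM in the same order (limma adjusted p = 0.69). Like Idh3a, Idh3b passed under median-ratio scaling (log2 fold change 0.32, limma adjusted p = 0.0251). Under quantile normalization Idh3b was at 0.25 and did not pass (limma adjusted p = 0.0537). The Idh3a to Idh3b ratio averaged 0.852 in miR-130a libraries and 0.826 in controls and did not pass (log2 difference 0.05 ± 0.0398 SE, adjusted p = 0.423, exact permutation). The Idh3a to Idh3g ratio was 1.13, 1.21, 1.24, 1.17 and 1.21 in miR-130a libraries 13, 14, 15, 17 and 18, against 1.09, 1.06, 1.16, 1.05 and 0.937 in control libraries 3, 4, 5, 7 and 9. That ratio was higher in the miR-130a group, although control library 5 exceeded miR-130a library 13 (log2 difference 0.17 ± 0.0557 SE, adjusted p = 0.0476, exact permutation). Without control libraries 7 and 9 the difference was 0.11 (exact permutation p = 0.0536, adjusted 0.129).

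Ogdh encodes the thiamine-dependent enzyme of the alpha-ketoglutarate dehydrogenase complex, whose substrate is also the precursor of glutamate. Ogdh measured 123, 107, 99.4, 148 and 111 TPM in miR-130a libraries 13, 14, 15, 17 and 18, against 109, 152, 162, 115 and 92.3 TPM in control libraries 3, 4, 5, 7 and 9. It was the most scattered of the 8, with a coefficient of variation of 19.6% over all 10 libraries, and the control libraries spanned a wider range that held all 5 miR-130a libraries (log2 fold change −0.08, 95% interval −0.44 to 0.27, limma adjusted p = 0.787). Ogdhl, a related enzyme of brain, was at 42.3 ± 3.86 TPM in miR-130a libraries and 49.0 ± 10.1 TPM in controls, and Dlst, the succinyltransferase core of the complex, at 79.7 ± 4.38 and 76.0 ± 9.69 TPM (SD, n = 5 each; limma adjusted p = 0.423 and 0.675). The call of Ogdhl appeared without control libraries 7 and 9, at a log2 fold change of −0.38 (limma adjusted p = 0.034). Neither the Ogdh to Dlst ratio, 1.46 in miR-130a libraries and 1.63 in controls, nor the Ogdh to Ogdhl ratio, 2.76 and 2.56, passed (adjusted p = 0.417 each, exact permutation). Mrps36, an adaptor that holds the dehydrogenase subunit to this complex, rose to 88.0 ± 10.2 TPM in miR-130a libraries, against 68.6 ± 6.45 TPM in controls, without overlap (log2 fold change 0.35, 95% interval 0.13 to 0.57, limma adjusted p = 0.0377). Its call was kept only without miR-130a library 18 or control library 9 among the 10 libraries left out in turn, with other adjusted p-values up to 0.0944 in limma, while the log2 fold change stayed at 0.29 to 0.39. The call was also lost without the filter on low genes and without the variance trend (limma adjusted p = 0.0707 and 0.0535). It was kept under median-ratio scaling and quantile normalization (limma adjusted p = 0.0299 and 0.0251), where higher calls over all tested genes rose too.

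Sucla2 had the lowest p of the 8. It encodes the subunit that makes succinyl coenzyme A ligase form ATP, while Suclg2 encodes the alternative subunit of the GTP-forming enzyme, and both pair with Suclg1. Sucla2 measured 87.3, 83.7, 109, 74.0 and 87.9 TPM in miR-130a libraries 13, 14, 15, 17 and 18, against 79.7, 72.2, 78.3, 74.0 and 70.5 TPM in control libraries 3, 4, 5, 7 and 9. Libraries 13, 14, 15 and 18 of the miR-130a group lay above all controls, and library 17 lay among them (log2 fold change 0.23, 95% interval 0.00 to 0.45, limma adjusted p = 0.169; unadjusted p = 0.047). Relative to the median of all genes the log2 fold change was 0.32. With median-ratio scaling Sucla2 passed in limma (log2 fold change 0.34, adjusted p = 0.0183), whereas with quantile normalization it was at 0.31 (adjusted p = 0.0511). Without miR-130a library 15, its highest value, the log2 fold change was 0.15 (limma adjusted p = 0.319).

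Suclg2 measured 12.6, 11.2, 12.8, 12.3 and 14.6 TPM in miR-130a libraries 13, 14, 15, 17 and 18, against 13.9, 13.3, 14.03, 16.7 and 18.2 TPM in control libraries 3, 4, 5, 7 and 9. Of the miR-130a libraries, 4 lay below every control and library 18 lay among them, and the gene did not pass (log2 fold change −0.24, 95% interval −0.48 to 0.00, limma adjusted p = 0.176). Suclg1 was at 106 ± 9.40 TPM in miR-130a libraries and 99.6 ± 10.4 TPM in controls (SD, n = 5 each; limma adjusted p = 0.577). The Sucla2 to Suclg2 ratio was 6.92, 7.50, 8.52, 5.99 and 6.01 in miR-130a libraries 13, 14, 15, 17 and 18, against 5.71, 5.41, 5.58, 4.42 and 3.88 in control libraries 3, 4, 5, 7 and 9. Every miR-130a library had a higher ratio than every control, the only 1 of the 12 ratios without overlap (log2 difference 0.49 ± 0.146 SE, adjusted p = 0.0476, exact permutation; its unadjusted p of 0.00794 is the smallest that 252 assignments can give). The Sucla2 to Suclg1 ratio, 0.828 in miR-130a libraries and 0.755 in controls, did not pass (adjusted p = 0.476, exact permutation). The Sucla2 to Suclg2 ratio was lowest in control libraries 7 and 9, which also had the highest summed microglial markers, 3222 and 3560 TPM, and endothelial markers, 144 and 148 TPM; the part of these cells in the ratio was not tested. Without control libraries 7 and 9 the log2 difference was 0.31 and the groups still did not overlap (exact permutation p = 0.0357, adjusted 0.129). In that design of 5 against 3 the smallest p is 0.0179, and 5 of 12 ratios would have to be at it, or more at higher ones, for any to pass.

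**Figure D3:**
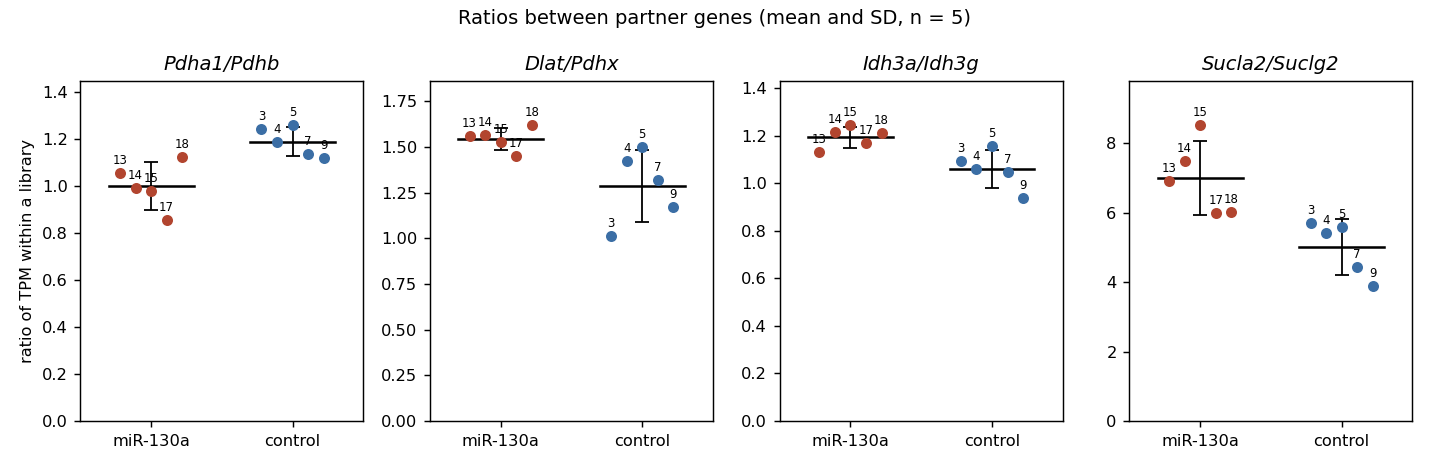
Ratio of TPM within each library (vertical axes, from 0) for the 4 of 12 ratios with an adjusted p under 0.05, miR-130a left and control right, with library numbers, arithmetic means and SD (n = 5). Only the Sucla2 to Suclg2 ratio separates the groups, at 5.99 to 8.52 in miR-130a libraries against 3.88 to 5.71 in controls.

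With 12 ratios, a single ratio at the smallest possible p would have an adjusted p of 0.0952, so these calls depend on one another; with 1 library left out at least 2 ratios must be at that smallest p, or more at higher ones, for any to pass. The unadjusted p is therefore given too. Over the 10 libraries left out in turn, all 4 ratios kept an unadjusted p under 0.05 each time (exact permutation), at up to 0.0238 for Pdha1 to Pdhb, 0.0476 for Dlat to Pdhx, 0.0317 for Idh3a to Idh3g and 0.0238 for Sucla2 to Suclg2. Adjusted over 12, they passed without control library 5 (Dlat to Pdhx, Idh3a to Idh3g and Sucla2 to Suclg2) and without miR-130a library 18 (Pdha1 to Pdhb and Sucla2 to Suclg2), with adjusted p up to 0.143 otherwise. The log2 differences ran from −0.30 to −0.20 for Pdha1 to Pdhb, from 0.19 to 0.34 for Dlat to Pdhx, from 0.13 to 0.21 for Idh3a to Idh3g and from 0.40 to 0.54 for Sucla2 to Suclg2, whose groups stayed apart in 10 of 10.

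Fh1 and Mdh2 close the cycle. Fh1 encodes fumarase, which hydrates fumarate in the matrix and the cytosol. Fh1 measured 62.0, 56.7, 53.9, 55.5 and 55.0 TPM in miR-130a libraries 13, 14, 15, 17 and 18, against 45.7, 55.3, 56.6, 49.7 and 51.0 TPM in control libraries 3, 4, 5, 7 and 9. It was the least variable of the 8, with a coefficient of variation of 8.25%, and control libraries 3, 7 and 9 lay below every miR-130a library (log2 fold change 0.13, 95% interval −0.05 to 0.32, limma adjusted p = 0.337). Mdh2 encodes the mitochondrial malate dehydrogenase, which regenerates oxaloacetate and takes part in the malate-aspartate shuttle. Mdh2 measured 474, 361, 344, 462 and 373 TPM in miR-130a libraries 13, 14, 15, 17 and 18, against 409, 474, 438, 408 and 311 TPM in control libraries 3, 4, 5, 7 and 9. Its groups had nearly the same mean, and its highest values, in miR-130a library 13 and control library 4, were alike (log2 fold change −0.02, 95% interval −0.31 to 0.27, limma adjusted p = 0.953). The Fh1 to Mdh2 ratio averaged 0.142 in miR-130a libraries and 0.128 in controls (adjusted p = 0.417, exact permutation). The ratio of Mdh2 to its cytosolic counterpart Mdh1 averaged 0.517 and 0.542 (adjusted p = 0.484, exact permutation).

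The subunits of succinate dehydrogenase, which links the cycle to the respiratory chain, did not pass either. Sdha was at 261 ± 11.3 TPM in miR-130a libraries and 245 ± 25.2 TPM in controls, and Sdhb at 222 ± 31.8 and 189.9 ± 10.99 TPM (SD, n = 5 each). The membrane anchors Sdhc and Sdhd were at 110.03 ± 8.16 and 101 ± 8.96 TPM in miR-130a libraries, against 121 ± 16.8 and 98.2 ± 3.31 TPM in controls. The 4 adjusted p-values in limma ran from 0.216 to 0.797.

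Across the 22 core enzymes of the complex and the cycle, then, 2 were higher, Pdhb and Dld, 0 were lower and 20 did not pass, against a background of 2.19% of tested genes higher and 11.3% lower. Their median log2 fold change was 0.08. Import and regulation of the pathway were covered by 9 genes, of which 2 were higher and 0 lower. Those were the 2 subunits of the mitochondrial pyruvate carrier: Mpc1 rose to 220.4 ± 13.8 TPM in miR-130a libraries, against 179 ± 9.28 TPM in controls, without overlap (log2 fold change 0.30, 95% interval 0.13 to 0.47, limma adjusted p = 0.0266). Mpc2 rose to 129 ± 9.16 TPM, against 98.9 ± 11.03 TPM (SD, n = 5 each; log2 fold change 0.38, 95% interval 0.18 to 0.59, limma adjusted p = 0.0203). The call of Mpc1 was lost without any 1 of miR-130a libraries 13, 14 and 15 or control libraries 3 and 7 (limma adjusted p up to 0.0759), and that of Mpc2 without any 1 of miR-130a libraries 13 and 14 or control libraries 3 and 7 (up to 0.0589). Mpc1 and Mpc2 both passed under median-ratio scaling (limma adjusted p = 0.0156 and 0.0219) and quantile normalization (limma adjusted p = 0.0139 and 0.0209). Higher calls over all tested genes rose under these scalings too. Of 4 genes for lipoylation and the adaptor, 1 was higher, Mrps36. Lipt2, a lipoyl transferase, was at 4.72 ± 0.562 TPM in miR-130a libraries and 3.69 ± 0.558 TPM in controls without passing (limma adjusted p = 0.161).

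Extreme values of the 8 genes often fell in the same libraries. Control library 9 held the lowest value of 7 of the 8 genes, Fh1 excepted, and of 14 of the 22 core genes. The share of all tested genes that were lowest in that library was not counted. In that library all 8 lay below their own means, by 0.31 on average on the log2 scale. The highest value fell in control library 5 for 4 genes (Pdha1, Dlat, Cs and Ogdh), in miR-130a library 13 for 3 (Idh3a, Fh1 and Mdh2) and in miR-130a library 15 for Sucla2. Summed over the 8 genes, TPM ran from 1105 to 1324 in miR-130a libraries and from 922 to 1326 in controls. The summed neuronal markers were likewise lowest in control library 9, at 3050 TPM, and highest in control library 5, at 4967 TPM; the part of neuronal content in the spread was not tested.

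**Figure D4:**
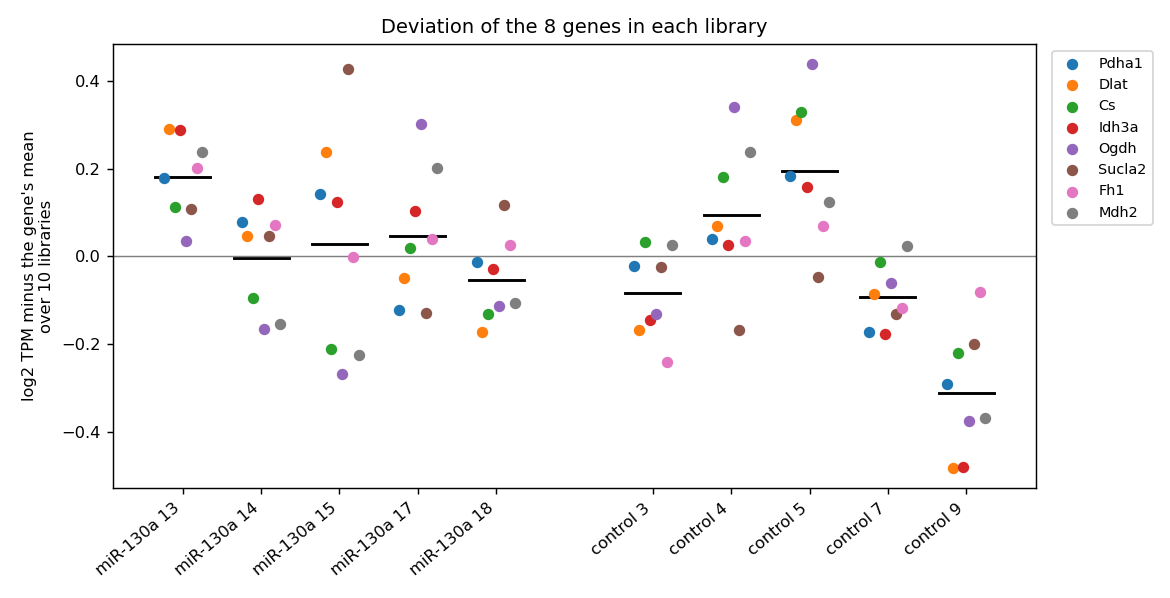
Log2 TPM minus the gene's own mean over 10 libraries (vertical axis) for the 8 genes in each library, miR-130a libraries left of controls; black bars are the mean of the 8. Control library 9 lies lowest, with a mean of −0.31, and control library 5 highest, at 0.20.

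The 8 genes did not all follow this order. In miR-130a library 15, Sucla2 deviated from its mean by 0.43 and Ogdh by −0.27 on the log2 scale, while in miR-130a library 17 Ogdh deviated by 0.30 and Sucla2 by −0.13.

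Of the 22 alternatives, 18 can move a fold change; the other 4, on filters and variance settings, change p-values only. Scalings other than quantile normalization moved all genes nearly alike. Under quantile normalization Mdh2 went from −0.02 to 0.00, while the median of all genes went from −0.09 to 0.05. Directions were read against the median of all genes in the same alternative. Over the 18, Idh3a lay 0.26 to 0.39 above that median, Sucla2 0.26 to 0.36, Fh1 0.17 to 0.27, Dlat 0.15 to 0.30 and Pdha1 0.13 to 0.23. Cs lay between −0.11 and 0.03 of it, Ogdh between −0.11 and 0.09 and Mdh2 between −0.05 and 0.15. Without subtracting the median, Idh3a, Sucla2 and Fh1 were above 0 in 18 of 18 and Cs in 0, while Pdha1 and Dlat were at −0.01 and 0.00 without control libraries 7 and 9. Scaling to the geometric mean of 8 neuronal markers, added after seeing the data, left 0 of 8 genes past the threshold in limma, with Idh3a at 0.16 and Sucla2 at 0.14. It also ended the calls of Pdhb, Dld, Mpc1, Mpc2 and Mrps36, whose log2 fold changes were then 0.21 to 0.32 (limma adjusted p from 0.114 to 0.332). That scaling moved all genes down, to a median of −0.17, and left 82 higher and 2274 lower genes, against 343 higher and 1767 lower as deposited. In the wider pathway list of 53, higher calls went from 6 to 0. Higher calls among other genes fell too, and the cause was not tested. Relative to the median of all genes, 7 of the 8 were above 0 as deposited and under 4 of 5 scalings, and 5 of 8 under quantile normalization.

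**Figure D5:**
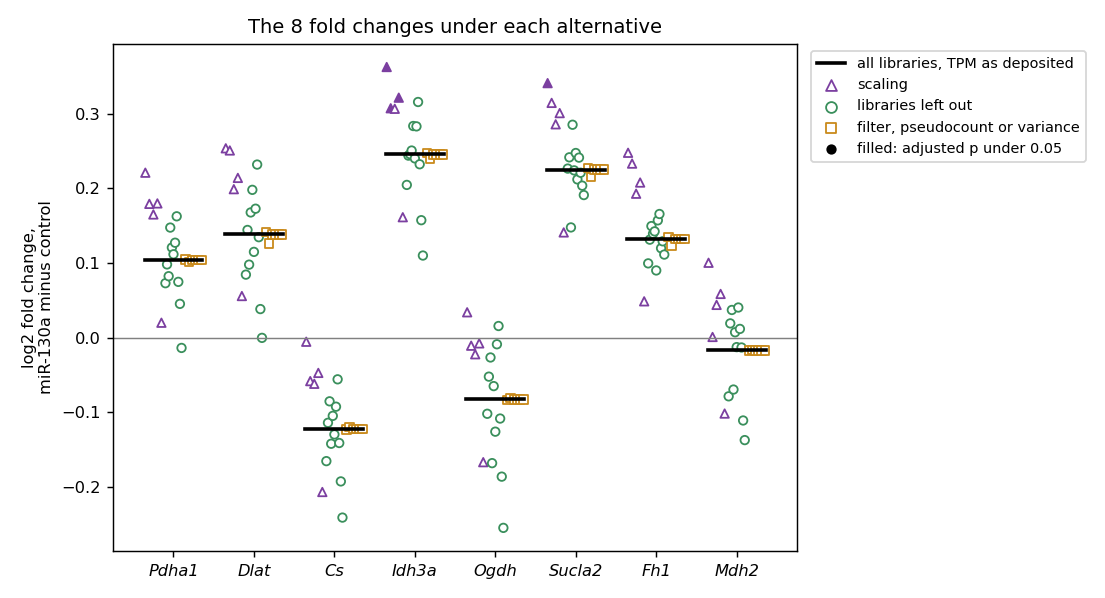
Log2 fold change, miR-130a minus control (vertical axis), of the 8 genes under each alternative: triangles are other scalings, circles libraries left out, squares other filters, pseudocounts or variance settings, and the black line the values as deposited. Filled marks, with a limma adjusted p under 0.05, appear only for Idh3a under 3 scalings and for Sucla2 under 1.

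Near copies of the 8 genes were looked up by name. Pdha2, the testis form of Pdha1, and Csl, a citrate synthase-like gene, were listed at 0 in all 10 libraries.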

How the data were processed

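RNA from punches of mouse medial prefrontal cortex was sequenced as stranded poly(A) libraries, per the labels' protocols. Gene values in TPM for each library are as the authors deposited them; fastp, HISAT2, RSEM, DESeq2 and the build GRCm39 are named in the submitters' processing notes, with no versions or roles. TPM divides by transcript length and library total, so a large change in some genes shifts all others, and it keeps no depth; no counting interval was computed. The 2 columns of the authors' group means were not used. Columns were assigned by sample titles.

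Genes with a mean of at least 1 TPM (15680 of 78317) were compared as log2(TPM + 1) with limma 3.58.1 (lmFit, eBayes with a trend; R 4.3.3; version 1.17.8 of data.table), 5 miR-130a against 5 control, 2-sided, with Benjamini-Hochberg adjustment over all tested genes at 0.05. The limma fit was tested on simulated data. Ratios were compared by exact permutation over all 252 assignments, 2-sided on the absolute difference of mean log2 ratios, adjusted over 12 ratios; means of ratios are geometric. Without a batch in the labels, no covariate was used, and since each group has its own block of library numbers, a batch that follows them cannot be told apart from group. Named were the 8 genes, the core enzymes, and of each other list the genes past the threshold and the 2 with the lowest p; exceptions are stated, and 1 core gene with its ratio is not reported here. The 8 genes and all lists were chosen with earlier results of these data known. The UTR search and figures used Python 3.11.15, pandas 2.3.3, numpy 2.4.6 and matplotlib 3.10.9.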

Additional observations from a re-analysis of the deposited data

Results flagged for a closer look

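Of 70 groups of 5 values examined (core genes, ratios and the mitochondrially encoded share), 2 held a library that lay far from the other 4; chance gives about 1 in 20. Pdhb was at 124 TPM in miR-130a library 18, where the other miR-130a libraries lay between 149.9 and 159 TPM. The Idh3a to Idh3b ratio was 0.753 in control library 9, the library in which 7 of the 8 genes were lowest.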

How the results depend on the processing

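The count of the 8 genes past the threshold was 0 under 19 of 22 alternatives. It was 2 under median-ratio scaling (Idh3a and Sucla2), 1 under quantile normalization and 1 after rescaling to protein-coding genes (Idh3a each time). That rescaling also left out the mitochondrially encoded genes. Higher calls over all tested genes rose too, from 343 as deposited to 866, 1071 and 561 in the same order, the last of 13660 genes. The count of all genes was 1302 without a filter and ran from 1228 to 3413 with 1 library left out. The count in the pathway list of 53 was 7, a share near the 13.5% of all tested genes only when both directions are pooled. By direction, 6 were higher and 1 lower, where 2.19% of all tested genes were higher and 11.3% lower. The count of 7 stood against 4 without a filter, 2 when scaled to neuronal markers and 2 to 8 with 1 library left out. Other scalings raised it, to 10 under median-ratio scaling and 10 under quantile normalization, all of them higher. It was 9 after rescaling to protein-coding genes and 8 without mitochondrially encoded genes. Higher calls over all tested genes rose under each of these scalings as well. The number of ratios past the threshold was 4, against 0 without control libraries 7 and 9 and 0 to 3 with 1 library left out. With 1 library left out at least 2 ratios must be at the smallest p, or more at higher ones, and without 2 libraries at least 5. These counts therefore say little on stability. The direction of all 12 was kept in each of 12 alternatives. The mitochondrially encoded share was 3.52 percentage points higher in miR-130a libraries, 4.004 without control libraries 7 and 9 (exact permutation p = 0.0536) and 3.10 to 4.08 with 1 library left out (exact permutation p from 0.0159 to 0.0714). The cause of these changes was not tested. No paired analysis was possible because the groups share no library numbers. Depth is unknown, so precision rests on the spread of 5 libraries.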

Other observations

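The enzymes and carriers that connect the cycle with the cytosol and with glutamate were measured as a list of 18 genes. Of these, 1 was higher, 1 was lower and 16 did not pass, where 2.19% of all tested genes were higher and 11.3% lower. With both directions pooled, the share of the list is near the 13.5% of all tested genes. Idh1, the cytosolic NADP-linked isocitrate dehydrogenase, rose to 36.9 ± 4.41 TPM in miR-130a libraries, against 26.9 ± 1.47 TPM in controls (SD, n = 5 each; log2 fold change 0.44, 95% interval 0.23 to 0.65, limma adjusted p = 0.0121). Its groups did not overlap, and the call held on leaving out each of the 10 libraries. Slc25a10, the mitochondrial dicarboxylate carrier, fell to 10.5 ± 0.647 TPM in miR-130a libraries, against 14.5 ± 1.48 TPM in controls, also without overlap (log2 fold change −0.42, 95% interval −0.63 to −0.22, limma adjusted p = 0.0136). That call held without each single library, but not under median-ratio scaling (log2 fold change −0.31, limma adjusted p = 0.0579) or quantile normalization (−0.26, limma adjusted p = 0.11). The call of Idh1 was lost when libraries were scaled to neuronal markers (0.36, limma adjusted p = 0.156), where higher calls over all genes fell from 343 to 82. Idh2 was picked with its values in view. Idh2, the mitochondrial NADP-linked enzyme, was at 34.8 ± 3.07 TPM in miR-130a libraries and 41.6 ± 2.73 TPM in controls and did not pass (log2 fold change −0.25, limma adjusted p = 0.0746).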
